A study of Mus musculus with 8 samples.

Results

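The genes described here encode 10 antioxidant enzymes, followed in pancreatic islets of wild type mice and of mice labelled Tcf1 knock-out. They are the superoxide dismutases Sod1, Sod2 and Sod3, catalase (Cat), the glutathione peroxidases Gpx1, Gpx3 and Gpx4, the peroxiredoxin Prdx1, thioredoxin (Txn1) and glutathione reductase (Gsr). Members were every probe set that the array annotation gives to 1 of these genes, by current or older symbol. This found 10 of the 14602 genes annotated on the arrays and 14 of 24965 probe sets, 12 of the 12488 on array type MG-U74A and 2 of the 12477 on MG-U74B. The rule uses gene names and no measured value. All 10 genes had at least 1 probe set, and Cat, Sod1, Sod2 and Prdx1 had 2. Both probe sets of Prdx1 are also listed for Gm21399, a pseudogene copy of peroxiredoxin I, so their signal cannot be given to Prdx1 alone.

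Total RNA of islets was hybridised to Affymetrix oligonucleotide arrays, on which a probe set is a group of short probes read as 1 intensity. Each genotype had 2 replicates, each with an array of both types, 8 arrays in all, and the design text calls the replicates biological. The groups are wild type islets and Tcf1 knock-out islets. The labels give no strain, allele, age or sex, do not say in which cells the gene is lost, and do not say whether a replicate is 1 animal or a pool. Tcf1 itself was not analysed here, so each array's genotype is taken from its label.

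Superoxide, a by-product of respiration and of oxidase enzymes, is turned into hydrogen peroxide by the superoxide dismutases, of which Sod1 works in the cytosol, Sod2 in mitochondria and Sod3 outside the cell. Catalase, the glutathione peroxidases and the peroxiredoxins then remove the peroxide. Peroxidases use electrons from glutathione, which glutathione reductase restores with NADPH, and peroxiredoxins use electrons from thioredoxin. Pancreatic islets, and beta cells above all, are known for low levels of catalase and of glutathione peroxidase compared with liver and many other tissues.

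The intensities are linear values as deposited, brought to the same trimmed mean on all arrays of a type. A log2 change is knock-out minus wild type after adding 25 to each intensity, with its standard error (SE), and it understates the ratio of low intensities. Adjusted p-values are from limma, with Benjamini-Hochberg adjustment over all tested probe sets of the array type and a threshold of 0.05. A probe set that misses the threshold is not thereby shown to be unchanged. Intensities of different probe sets cannot be compared with each other, so no order of levels among the genes is given.

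On MG-U74A all 12 member probe sets were tested. The transcripts of Sod1, Sod3, Gpx4 and Txn1, 1 of the 2 probe sets of Cat and both probe sets of Prdx1 and Gm21399 were higher in knock-out islets, and those of Gpx3 and Gsr were lower. Thus 7 probe sets rose, 2 fell and 3 did not pass the threshold. Among all 7516 tested probe sets of this array type 52.9% changed, 23.9% upwards and 29.0% downwards, so a change as such is common on these arrays. The median log2 change was 0.28 over the 12 member probe sets and -0.09 over all tested probe sets. Over the 10 member probe sets with 1 gene symbol, 5 rose and 2 fell. The genotypes did not overlap at 11 of the 12 member probe sets, against 79.1% of all tested probe sets. No test was made of these counts.

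**Figure D1:**
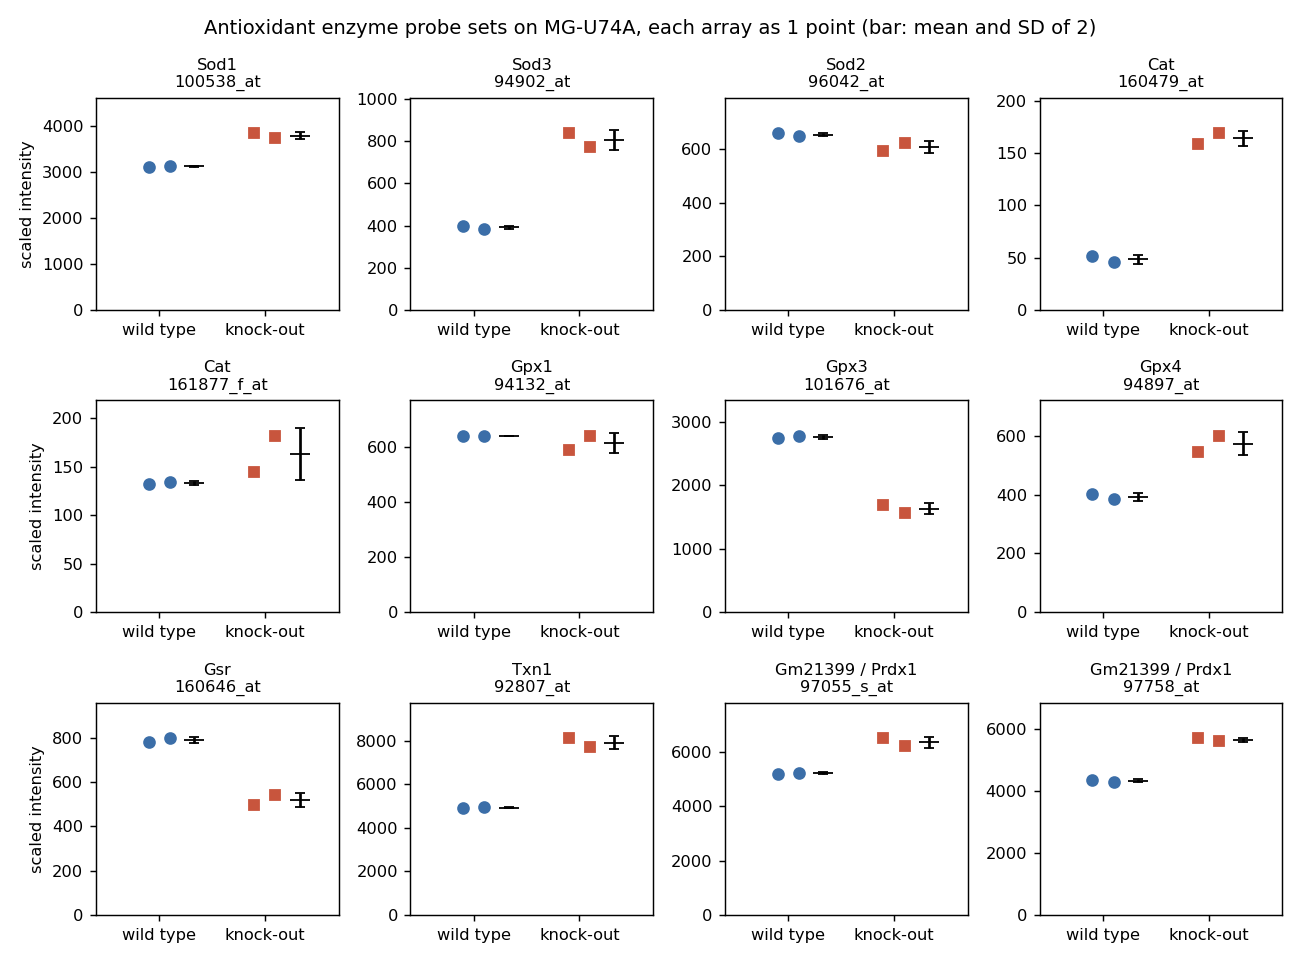
Scaled intensity (vertical axes, arbitrary linear units from 0) of the 12 member probe sets on MG-U74A, with wild type arrays as circles, knock-out arrays as squares, and a bar for the mean with the SD of 2 arrays. Knock-out arrays lie above both wild type arrays for Sod1, Sod3, Gpx4, Txn1, both Cat probe sets and both Gm21399 / Prdx1 probe sets, and below them for Gpx3, Gsr and Sod2.

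The upstream sequences of 4 genes are shown to compare some of the members whose probe sets moved. Many antioxidant genes are known to carry an antioxidant response element. They are the 250 bases before the RefSeq start of Sod1, Prdx1 and Cat, each with at least 1 probe set that rose, and of Gpx3, whose probe set fell, in the assembly GRCm38.p6. Sod1 lies at chr16:90220512-90220761 (plus strand), Prdx1 at chr4:116685349-116685598 (plus strand), Cat at chr2:103485154-103485403 (minus strand) and Gpx3 at chr11:54902604-54902853 (plus strand). Each is printed 5′ to 3′ in the direction of the gene. Capitals mark a match to TGACNNNGC, the core of the antioxidant response element, read on either strand.
Sod1: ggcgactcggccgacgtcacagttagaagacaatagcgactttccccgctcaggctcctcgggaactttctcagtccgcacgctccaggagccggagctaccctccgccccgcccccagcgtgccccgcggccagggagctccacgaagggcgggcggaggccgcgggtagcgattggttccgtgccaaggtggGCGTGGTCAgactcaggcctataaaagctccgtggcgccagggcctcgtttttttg
Prdx1: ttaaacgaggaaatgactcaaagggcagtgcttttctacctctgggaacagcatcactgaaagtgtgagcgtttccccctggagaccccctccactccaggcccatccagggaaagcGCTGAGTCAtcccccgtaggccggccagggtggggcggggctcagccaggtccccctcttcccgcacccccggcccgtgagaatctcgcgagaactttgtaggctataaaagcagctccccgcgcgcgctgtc
Cat: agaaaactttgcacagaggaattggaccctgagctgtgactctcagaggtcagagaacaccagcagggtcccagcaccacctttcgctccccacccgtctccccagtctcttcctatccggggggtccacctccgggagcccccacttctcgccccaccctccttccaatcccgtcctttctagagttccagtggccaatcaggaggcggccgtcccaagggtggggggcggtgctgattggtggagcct
Gpx3: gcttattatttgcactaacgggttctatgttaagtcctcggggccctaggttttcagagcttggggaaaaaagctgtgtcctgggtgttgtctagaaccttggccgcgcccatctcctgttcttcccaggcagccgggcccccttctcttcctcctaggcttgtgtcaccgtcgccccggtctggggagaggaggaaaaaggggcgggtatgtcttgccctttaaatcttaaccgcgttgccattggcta

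Both matches lie on the strand opposite to the gene, in Sod1 with its first printed base 56 bases before the start and in Prdx1 133 bases before it. The promoter table held 8 of the 10 members, with 11 windows, since Gpx4 has 4 starts. No other window of a member held the letters. This includes the windows of Txn1 and Gpx4, whose probe sets also rose and which are not printed. Whether a match goes with a rise was not tested. Of 32851 promoter windows of the same length 10.2% held a match. The 4 printed windows also differ in common promoter elements searched on both strands. TATAAA, the TATA box, was found in Sod1 and Prdx1, and in 12.4% of all windows. CCAAT was found at 4 places in Cat and 1 each in Sod1 and Gpx3, and in 33.8% of all windows. GGGCGG, a GC box, was found at 4 places in Sod1 and 1 each in the other 3, and in 32.7% of all windows. Matches to different motifs may overlap, and a match describes letters only.

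Among the superoxide dismutases, Sod3 and Sod1 were higher in knock-out islets. Sod3, the extracellular enzyme, was at 397 and 386 on the wild type arrays and at 837 and 771 on the knock-out arrays. Its mean went from 391 ± 7.78 to 804 ± 46.6 (SD, n = 2), 2.05 times the wild type mean, and it rose by 0.99 ± 0.07 on the log2 scale (adjusted p = 9.32e-04). The genotypes lay far apart compared with either pair. Sod1, the copper and zinc enzyme of the cytosol, was at 3124 and 3143 in wild type and at 3851 and 3751 in knock-out. This is 1.21 times the wild type mean, a rise of 0.28 ± 0.03 (adjusted p = 0.00396). Leaving out either wild type array took Sod1 over the threshold (adjusted p = 0.0612 and 0.0578). With quantile normalization its change was 0.15 ± 0.02 (adjusted p = 0.00719), down from the 0.28 of the main scaling.

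Sod2, the manganese enzyme of mitochondria, did not pass the threshold on either array type. On MG-U74A it was at 660 and 650 in wild type and at 593 and 623 in knock-out, a log2 change of -0.10 ± 0.05 (adjusted p = 0.184). Both knock-out arrays lay below both wild type arrays, but the gap between the genotypes was smaller than the distance between the knock-out arrays. On MG-U74B its other probe set was at 113 and 98.4 in wild type and at 104 and 161 in knock-out. The genotypes overlapped there, with a log2 change of 0.25 ± 0.40 (adjusted p = 0.689, unadjusted p = 0.566). That was the 1 tested member probe set of MG-U74B. Of the 7861 probe sets tested there 17.5% changed, 8.59% upwards and 8.87% downwards, and the genotypes did not overlap at 65.0%.

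Sod1 also has a probe set on MG-U74B, at 33.8 and 53.8 in wild type and below 0 on both knock-out arrays, at -69.0 and -38.3. Its mean was under the minimum for testing, 62.5, so it was not tested. Tested without that minimum it had a log2 change of -1.44 ± 0.18 (adjusted p = 0.0629), opposite in sign to the bright Sod1 probe set of MG-U74A. The rise of Sod1 therefore rests on 1 probe set. Both knock-out values became 0 before the log, so the spread between them is not in that SE. Values this low depend on the constant added, and no fold is given.

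Catalase, which splits hydrogen peroxide without an electron donor such as glutathione, rose on 1 of its probe sets and did not pass on the other. Probe set 160479_at was at 51.5 and 45.5 in wild type and at 159 and 169 in knock-out. Its mean went from 48.5 ± 4.24 to 164 ± 7.0, 3.38 times the wild type mean, and it rose by 1.36 ± 0.16 (adjusted p = 0.00414). The wild type mean was under 62.5, so this probe set was tested because of its level in knock-out. The size of its change depended on how low values were treated, from 1.12 with a constant of 20% of the trimmed mean to 1.76 with a floor in place of the constant. Probe set 161877_f_at was at 132 and 135 in wild type and at 144 and 182 in knock-out, with a log2 change of 0.24 ± 0.16 (adjusted p = 0.256). Here too both knock-out arrays were above both wild type arrays, but the knock-out arrays differed by more than the lower of them exceeded wild type. The letter f in its identifier marks a probe set that can read more than 1 transcript, and whether the 2 probe sets differ was not tested.

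The glutathione peroxidases did not move as 1 group. Gpx3, the enzyme secreted into plasma, was at 2743 and 2781 in wild type and at 1691 and 1572 in knock-out. Its mean went from 2762 ± 26.9 to 1631 ± 83.7, and it fell by 0.75 ± 0.05 (adjusted p = 8.46e-04). With quantile normalization the change of Gpx3 was -0.87 ± 0.04. Gpx4, which reduces peroxides within membrane lipids, was at 402 and 383 in wild type and at 545 and 599 in knock-out. It rose by 0.51 ± 0.08 (adjusted p = 0.00770), and with wild type replicate 2 left out the change was 0.48 and missed the threshold (adjusted p = 0.0600). Gpx1, the main enzyme of the cytosol, was at 641 and 639 in wild type and at 590 and 641 in knock-out. The wild type values lay within the range of the knock-out pair or at its edge, and the log2 change was -0.06 ± 0.06 (adjusted p = 0.500). All 3 enzymes are selenoproteins.

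Glutathione reductase and thioredoxin, which supply electrons to the peroxide-removing enzymes, moved in opposite directions. Gsr was at 782 and 798 in wild type and at 496 and 541 in knock-out, from a mean of 790 ± 11.6 to 518 ± 31.8. It fell by 0.59 ± 0.06 (adjusted p = 0.00338). Txn1 was at 4920 and 4930 in wild type and at 8106 and 7694 in knock-out, 1.60 times the wild type mean, and rose by 0.68 ± 0.04 (adjusted p = 6.08e-04). The Txn1 pairs stood well apart, although the knock-out arrays differed by 5.22% of their mean and the wild type arrays by 0.192%. With quantile normalization the change of Txn1 was 0.47 ± 0.02 (adjusted p = 2.75e-04). Txnrd1, a thioredoxin reductase that is not a member, fell by 0.55 ± 0.07 (adjusted p = 0.00498).

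Prdx1, the abundant peroxiredoxin of the cytosol, was read together with its pseudogene. Probe set 97758_at was at 4376 and 4310 in wild type and at 5712 and 5621 in knock-out, and rose by 0.38 ± 0.03 (adjusted p = 0.00139). Probe set 97055_s_at was at 5190 and 5249 in wild type and at 6514 and 6225 in knock-out, and rose by 0.29 ± 0.04 (adjusted p = 0.00504). On both, each knock-out array was above each wild type array, by 1.30 and 1.22 times in the means. The call of 97055_s_at ended with quantile normalization (0.05 ± 0.02, adjusted p = 0.122) and without either wild type array (adjusted p = 0.0683 and 0.0618), and the change of 97758_at was 0.16 ± 0.02 with quantile normalization (adjusted p = 0.00573).

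Sod1, Txn1 and both probe sets of Prdx1 and Gm21399 are the brightest members, with means over the 4 arrays above 3000. Among 224 tested probe sets that bright, a limit chosen after the values were seen, 124 rose and 70 fell, with a median log2 change of 0.22. With quantile normalization, which gives every array the same distribution, 101 rose and 83 fell and the median was 0.03. The part of this shift of the bright range in the rises of these members was not tested. Sod3, Cat 160479_at, Gpx4, Gpx3 and Gsr, which are dimmer, kept their calls under quantile normalization, with changes of 1.05, 1.33, 0.57, -0.87 and -0.52. Under it 6 member probe sets rose and 2 fell, and 24.2% of all tested probe sets rose and 27.7% fell.

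**Figure D2:**
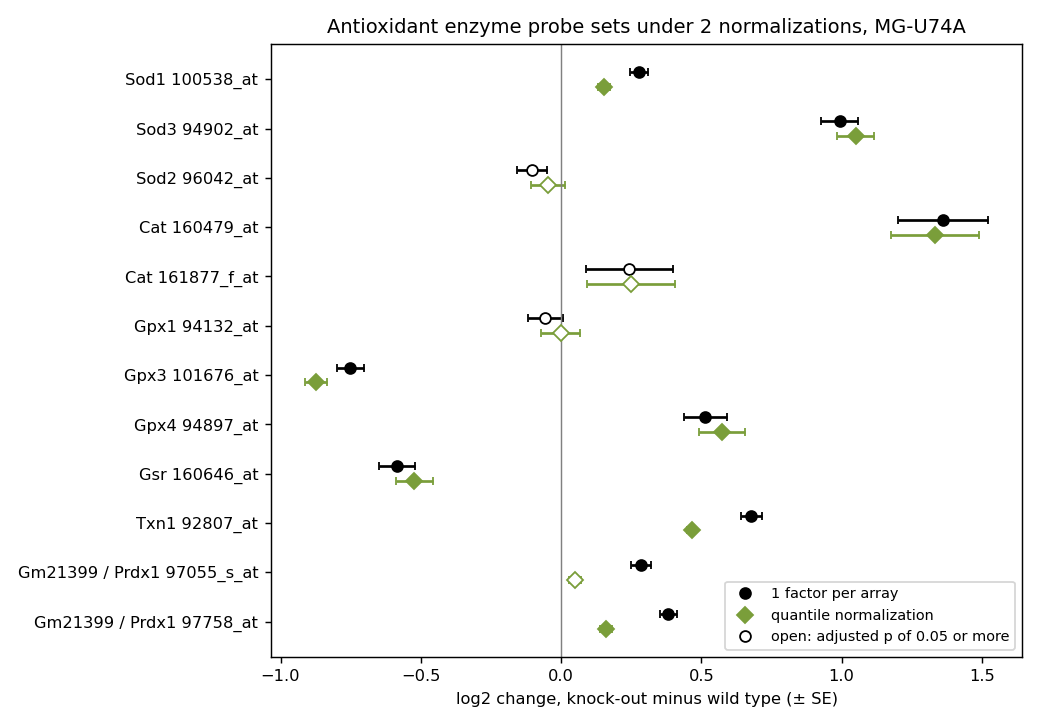
Log2 change, knock-out minus wild type, with its standard error (horizontal axis) for each member probe set on MG-U74A, with 1 factor per array (circles) or quantile normalization (diamonds), open where the adjusted p is 0.05 or more. The bright probe sets of Sod1, Txn1 and Gm21399 / Prdx1 lie closer to 0 with quantile normalization, and 97055_s_at goes from 0.29 to 0.05.

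Without wild type replicate 2, 4 member probe sets rose, against 7 with all arrays, and 2 fell as before. Without wild type replicate 1, 5 rose and 2 fell. On those settings 15.7% and 16.0% of all tested probe sets rose, against 23.9% with all arrays. The calls of Sod3, Txn1, Cat 160479_at, Gpx3, Gsr and 97758_at were kept whichever single array was left out. In 11 of the 12 member probe sets the knock-out pair differed by a larger share of its mean than the wild type pair, the exception being Cat 160479_at. Across 7431 tested probe sets with means above 0 this held for 65.2%. The wild type pairs of the members differed by 0.192% to 12.4% and the knock-out pairs by 1.61% to 23.1%. Whether the replicates come from separate RNA samples was not tested, and p-values measure the spread between these arrays.

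The genotypes also differ in RNA completeness, as control probe sets read it, and in the levels of cell type markers. For Gapdh, the intensity at the 3′ control probe set divided by that at the 5′ one was 3.15 and 3.22 on the wild type MG-U74A arrays and 0.949 and 0.937 on the knock-out arrays, where a higher ratio means less complete RNA. The actin ratio was 1.47 and 1.45 in wild type and 1.16 and 1.12 in knock-out. Islet hormones were bright in all samples, with Ins2 at 33667 and 34052 in wild type and at 29623 and 26557 in knock-out. Beta cell markers on MG-U74A fell, 8 of 8 tested, and so did 3 of 3 markers of other endocrine cells and 6 of 6 of acinar cells, with 3 of 4 duct markers that fell and 1 that rose. Of these, Pdx1, Slc2a2 and Clps were tested because of their level in wild type, their knock-out means being under 62.5. The beta cell markers fell by unlike amounts, with log2 changes from -0.27 for Ins2 to -3.93 for Slc2a2.

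Markers of immune, connective tissue and vessel cells were higher in knock-out. Of 8 tested macrophage markers 7 rose and 0 fell, with a summed intensity of the 9 genes on the array of 2131 to 2210 in wild type and 6633 to 6919 in knock-out. Of 7 tested lymphocyte markers 6 rose and 0 fell, with sums of 4382 to 4436 and 20406 to 21424 over 8 genes. Cd79a was below 0 on both wild type arrays and the MG-U74A probe set of Cd3e on all 4. Of 9 fibroblast and stellate cell markers 6 rose and 1 fell, with sums of 5936 to 6025 and 17111 to 18091. The marker that fell, Col1a2, did so on the probe set counted and rose on its other one. Of 8 endothelial markers 6 rose and 1 fell, with sums of 2096 to 2114 and 2646 to 2732. Of 3 tested neutrophil markers 2 rose, S100a8 and S100a9, with sums of -164 to 67.1 and 1256 to 1402 over 6 genes, while Ngp was below 0 on all 4 arrays. The red blood cell markers tested were globins, Hbb-b2 and Hba-a1, and both rose, with sums of 272 to 290 and 581 to 656 over 3 genes. Ptprc, Cd3d, Cd79a, Thy1, Icam2, S100a9 and Hbb-b2 had wild type means under 62.5 and were tested because of their level in knock-out. Among the markers with a wild type mean at or above it, 6 of 7 rose for macrophages, 4 of 5 for lymphocytes, 5 of 8 for fibroblasts and stellate cells, 5 of 7 for endothelium, 1 of 2 for neutrophils and 1 of 1 for red blood cells. Antioxidant enzymes are known to differ in level between cell types such as these. The part of these cells and of RNA completeness in the changes of the members was not tested. In such bulk samples, fewer cells of a type, less RNA per cell and lower expression of the marker genes themselves cannot be told apart.

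**Figure D3:**
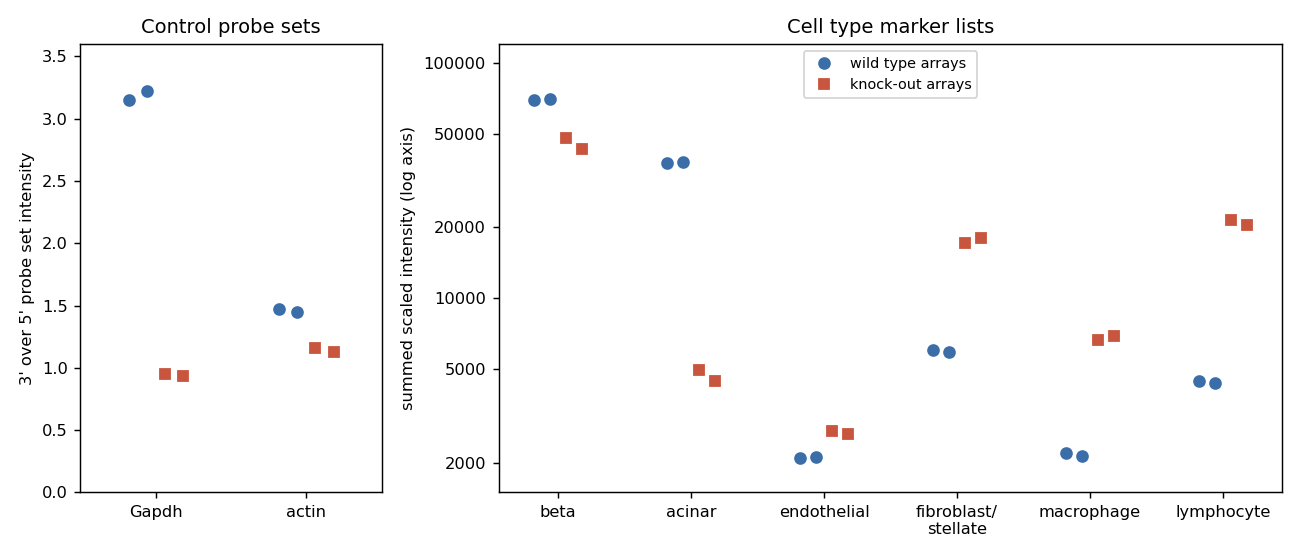
Left, intensity of the 3′ over the 5′ control probe set of Gapdh and actin (linear axis from 0), and right, summed scaled intensity of cell type marker lists (log axis), 1 point per MG-U74A array, circles for wild type and squares for knock-out. Gapdh ratios are 3.15 and 3.22 against 0.949 and 0.937, and the sums are lower in knock-out for beta and acinar markers and higher for endothelial, fibroblast and stellate, macrophage and lymphocyte markers.

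The enzymes above depend on other genes of the redox system, of which 103 were listed in 10 groups. On MG-U74A 67 of them were tested as genes, each by its brightest tested probe set. Of these 21 rose, 23 fell and 23 did not pass, with a median log2 change of 0.01. Among all 5707 genes so tested 52.8% changed, 22.7% upwards and 30.2% downwards, with a median of -0.12. On MG-U74B 23 were tested, of which 3 rose and 3 fell, where 19.2% of 5395 genes changed, 9.60% upwards and 9.60% downwards. Without wild type replicate 2, 15 of the 67 genes fell on MG-U74A, against 23 with all arrays. The 6 calls of MG-U74B all ended without wild type replicate 1 and also without wild type replicate 2, and 1 or 2 remained without a knock-out array.

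**Figure D4:**
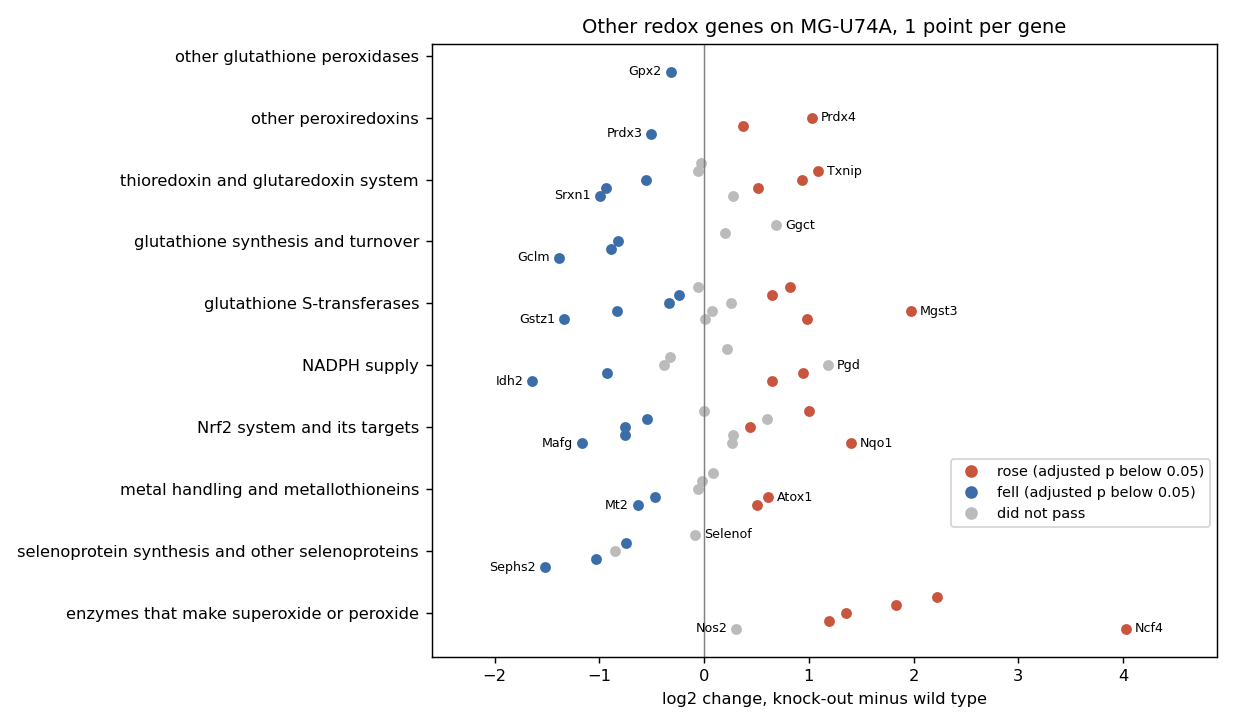
Log2 change, knock-out minus wild type (horizontal axis), of the 67 other redox genes tested on MG-U74A, 1 point per gene in its list, red where it rose, blue where it fell and grey where it did not pass the threshold, with the lowest and highest gene of each list named. All 3 called genes of glutathione synthesis and turnover lie below 0, and all 5 called genes of superoxide and peroxide production lie above 0. Ncf4 is listed below 0 in wild type, and its change depends on the constant added.

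Of 5 tested genes of glutathione synthesis and turnover on MG-U74A 3 fell and 0 rose, with a median of -0.82, where 30.2% of all genes tested fell. Gclm, the regulatory subunit of the enzyme that limits glutathione synthesis, was at 759 and 720 in wild type and at 241 and 297 in knock-out, and fell by 1.39 ± 0.12 (adjusted p = 0.00159). Its catalytic partner Gclc fell by 0.89 ± 0.10, and Slc3a2, the heavy chain of the cystine transporter, fell by 0.82 ± 0.08. Gss, the enzyme of the second step, did not pass, at 0.20 (adjusted p = 0.33). Ggct, which acts in glutathione breakdown, was at 85.3 and 54.1 in wild type and at 125 and 125 in knock-out, above wild type on both arrays, and did not pass either, at 0.68 (adjusted p = 0.0666). On MG-U74B Gclm fell by 1.91 ± 0.19 on 1 probe set, from 855 and 1084 to 230 and 248, and its other probe set there did not pass, at -0.91 (adjusted p = 0.0979). Also on MG-U74B Chac1, which degrades glutathione, fell by 1.06 ± 0.10, and Slc7a11, the light chain of the cystine transporter, rose by 0.85 ± 0.16 (adjusted p = 0.0323).

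Among genes of selenoprotein synthesis and other selenoproteins, 3 of 5 tested on MG-U74A fell and 0 rose, with a median of -0.85. Of all genes tested there 30.2% fell. Sephs2, which makes the selenium donor for every selenoprotein, was at 326 and 348 in wild type and at 102 and 100.3 in knock-out, and fell by 1.52 ± 0.11 (adjusted p = 0.00100). Selenok and Selenos, both of the endoplasmic reticulum, fell by 1.03 ± 0.05 and 0.75 ± 0.07. A second probe set of Selenok did not pass (adjusted p = 0.0826). Selenof, also of the endoplasmic reticulum, did not pass on the probe set counted, at -0.09 (adjusted p = 0.220), and rose by 0.22 ± 0.05 on its other one (adjusted p = 0.0227). Sepsecs, a synthesis enzyme, did not pass, at -0.85 (adjusted p = 0.112), and its knock-out mean was under 62.5. On MG-U74B Sepsecs was at 770 and 695 in wild type and at 482 and 437 in knock-out. It did not pass there either, at -0.64 (adjusted p = 0.0530). The gastrointestinal glutathione peroxidase Gpx2, the 1 tested gene of its list, fell by 0.32 ± 0.07, and it missed the threshold with any 1 array left out (adjusted p between 0.0597 and 0.146).

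The other peroxiredoxins went both ways, 2 up and 1 down of 3 tested. Prdx4, the enzyme of the secretory pathway, was at 331 and 340 in wild type and at 695 and 726 in knock-out, and rose by 1.03 ± 0.06 (adjusted p = 7.00e-04). Prdx3, of mitochondria, fell by 0.50 ± 0.15, close to the threshold (adjusted p = 0.0496). Prdx3 missed it with quantile normalization (adjusted p = 0.0784), with a constant of 5%, a floor, no filter or no variance trend (adjusted p between 0.0503 and 0.151), and with wild type replicate 2 or either knock-out array left out (adjusted p between 0.092 and 0.189). Prdx2 had probe sets that opposed each other. Probe set 100331_g_at rose by 0.37 ± 0.05 (adjusted p = 0.00546), and 99608_at fell by 0.91 ± 0.10 (adjusted p = 0.00375), so no direction is given for Prdx2, and the rise was lost when wild type replicate 1 was left out (adjusted p = 0.0525).

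The thioredoxin and glutaredoxin genes split evenly, 3 up and 3 down of 9 tested, with a median of -0.03. Txnip, which binds and inhibits thioredoxin, rose by 1.09 ± 0.08 from 299 and 329 to 713 and 674 on its brighter probe set, while its other one did not pass, at -0.22 (adjusted p = 0.224). Srxn1, which repairs overoxidised peroxiredoxins, fell by 0.99 ± 0.19 and missed the threshold with either wild type array left out (adjusted p = 0.0793 and 0.0660) or with no filter on low values (adjusted p = 0.0658). Txnl1, a thioredoxin-like protein, fell by 0.94 ± 0.07. The thioredoxin reductase gene Txnrd1 fell by 0.55 ± 0.07, from 2007 and 2032 in wild type to 1286 and 1455 in knock-out.

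NADPH is the electron source for Gsr and thioredoxin reductase. The list for its supply also holds pentose phosphate genes that do not make NADPH themselves. It had 2 rises and 2 falls of 8 tested, with a median of -0.05. The mitochondrial isocitrate dehydrogenase gene Idh2 fell by 1.64 ± 0.09 from 724 and 738 to 202 and 234. Malic enzyme, Me1, fell by 0.92 ± 0.14, and missed the threshold when wild type replicate 2 was left out (adjusted p = 0.0606). Tkt, transketolase of the pentose phosphate pathway, rose by 0.94 ± 0.06, and Taldo1 of the same pathway rose by 0.65 ± 0.09. Neither makes NADPH itself, and they were the only rises of the list. Pgd was at 370 and 177 in wild type and at 663 and 570 in knock-out. It did not pass, at 1.18 (adjusted p = 0.0503).

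Of 12 tested glutathione S-transferases, which join glutathione to reactive molecules, 4 rose and 4 fell, with a median of 0.04. The membrane enzymes Mgst3 and Mgst1 rose by 1.97 ± 0.09 and 0.98 ± 0.07, Mgst3 from 113 and 113 to 523 and 510. Gstz1, which acts in tyrosine breakdown, fell by 1.34 ± 0.07. In the Nrf2 system, the transcription factor pathway that induces many of these genes, 3 rose and 4 fell of 11, with a median of 0.27. Nqo1, a quinone reductase and standard target, rose by 1.40 ± 0.19, from 35.0 and 33.6 to 122 and 142. Hmox2 rose by 1.00 ± 0.21 and Mafg, a small Maf partner, fell by 1.17 ± 0.13. Hmox2 missed the threshold with either wild type array or knock-out replicate 2 left out (adjusted p between 0.0515 and 0.105) and with no filter (adjusted p = 0.0635). Nqo1 and Hmox2 had wild type means under 62.5 and were tested because of their level in knock-out. Of the 9 others 1 rose and 4 fell. The 1 that rose was Hmox1, from 1941 and 1910 to 2672 and 2572, by 0.44 ± 0.04 (adjusted p = 0.00169). On MG-U74B Hmox1 did not pass, at -0.92 (adjusted p = 0.403). The change of Nqo1 went from 1.11 with a constant of 20% to 1.94 with a floor. On MG-U74B Blvrb, which reduces biliverdin, rose by 2.93 ± 0.42 (adjusted p = 0.0166), from 133 and 48.2 to 827 and 760. The wild type arrays of Blvrb lay far apart, and its change was 3.48 without wild type replicate 1 and 2.37 without replicate 2. Blvrb missed the threshold with no filter (adjusted p = 0.0887).

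Metal handling genes had 2 rises and 2 falls of 7, with a median of -0.02. Mt2, a metallothionein, fell by 0.64 ± 0.03 from 9805 and 10080 to 6432 and 6347. Atox1, a copper chaperone, rose by 0.61 ± 0.10, and missed the threshold when knock-out replicate 1 was left out (adjusted p = 0.0664) or with no filter (adjusted p = 0.0573). Ccs, the chaperone that gives Sod1 its copper, did not pass on the probe set counted, at -0.06 (adjusted p = 0.626). Its other probe set was at 41.3 and 18.8 in wild type and at 123 and 139 in knock-out, and rose by 1.53 ± 0.28 (adjusted p = 0.0138), with a wild type mean under 62.5. Ceruloplasmin, Cp, rose by 0.51 ± 0.09, and missed it with either wild type array left out (adjusted p = 0.0823 and 0.0737). On MG-U74B the transferrin receptor gene Tfrc fell by 1.09 ± 0.16, while its probe set on MG-U74A did not pass, at 0.08 (adjusted p = 0.164).

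Of 6 tested genes for enzymes that make superoxide or peroxide, 5 rose and 0 fell, with a median of 1.59. Of all genes tested on MG-U74A 22.7% rose. Ncf4 and Nos2 had wild type means under 62.5 and were tested because of their level in knock-out, and all 4 others rose. Cyba and Cybb, the membrane subunits of the phagocyte NADPH oxidase, rose by 2.22 ± 0.10 and 1.83 ± 0.14, Cyba from 572 and 467 to 2522 and 2477. Cybb was at 68.8 and 58.3 in wild type, close to that minimum, and at 293 and 285 in knock-out. The change of Cybb went from 1.58 with a constant of 20% to 2.19 with a floor. Ncf4, a cytosolic subunit, was listed below 0 on both wild type arrays and at 382 and 383 in knock-out (adjusted p = 3.41e-04). Both its wild type values became 0 before the log, so the spread between them did not enter that p-value. No fold is given for Ncf4, since its log2 change went from 3.11 to 4.98 with the constant added. On MG-U74B Cybb rose by 1.87 ± 0.23, from 262 and 389 to 1156 and 1323. The oxidase is known from phagocytes. On these arrays 7 of 8 tested macrophage markers, 6 of 7 tested lymphocyte markers and 2 of 3 tested neutrophil markers rose. The neutrophil marker Elane did not pass, at 0.14 (adjusted p = 0.461). The part of these cells in the rise of the oxidase genes was not tested.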

How the data were processed

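Islet RNA of 2 genotypes was measured on 2 array types, with 2 arrays of each genotype on each. The values deposited by the authors are linear intensities, 1 per probe set, scaled so that the mean without the highest and lowest 2% was 250.2 for MG-U74A and 250.1 for MG-U74B. The sources used here do not give the software. Of each array's values, 18.4% to 26.7% were below 0.

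Each array was multiplied by 1 factor to the common trimmed mean, negative values became 0, and 10% of that mean (25) was added before taking log2. Probe sets averaging under 25% of it (62.5) on the 4 arrays and the 66 control probe sets of each type were not tested. The genotypes were compared separately for each array type with lmFit and eBayes with a trend (limma 3.58.1, R 4.3.3), two-sided. The procedure was checked on simulated data. An exact permutation test of 2 against 2 cannot go below 0.333, so p-values rest on pooling across probe sets.

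The array annotation gave the gene names, with symbols updated through GRCm38.p6 gene IDs. On MG-U74A 10855 had 1 symbol, 396 several and 1237 none, and on MG-U74B 10603, 178 and 1696. Promoters are RefSeq's. Of each redox list, up to 3 genes with the largest changes past the threshold were named, and genes with opposed probe sets. Other genes of these lists, such as Txnrd1 and Ccs, are given besides and were not followed singly through the alternatives. The members, lists and rules were chosen with earlier results of these data known. The alternatives were quantile normalization, equal medians, other constants or a floor, no filter, no variance trend, a replicate block, probe sets without a letter before _at, and each array left out.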

Additional observations from a re-analysis of the deposited data

How the results depend on the processing

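Of the member probe sets, 6 to 9 changed on MG-U74A with 1 array left out, of which 4 to 7 rose and 2 fell, against 9, 7 and 2 with all arrays. The other alternatives named under processing gave 8 or 9 calls, and leaving out the 2 probe sets with 2 symbols, an alternative chosen after the data were seen, gave 7. Equal medians changed no member call. Among other redox genes on MG-U74A, 33 to 47 changed with 1 array left out, 17 to 24 up and 15 to 23 down, against 44, 21 and 23. On MG-U74B, where 6 changed, 0 to 2 did so with 1 array left out, 0 up and 0 to 2 down. For fits with 1 array left out, the shares of all tested probe sets that changed or fell are not given. These ranges are therefore not set against a background. With all arrays 52.9% of tested probe sets changed on MG-U74A and 17.5% on MG-U74B. With no filter on low values, Gpx2, Prdx3, Srxn1, Hmox2 and Atox1 missed the threshold on MG-U74A (adjusted p between 0.0573 and 0.151). On MG-U74B, 2 changed and 0 rose with no filter, and 3 changed and 1 fell without a variance trend. The cause was not tested. The sign turned for Gpx1 without knock-out replicate 1 (0.0014, in a range over left-out arrays of -0.11 to 0.0014) and for Sod2 on MG-U74B without knock-out replicate 2 (-0.021, in a range of -0.021 to 0.51), neither past the threshold. With the replicate number as a block, 9 member probe sets and 44 other redox genes changed on MG-U74A and 6 on MG-U74B, where the numbers gave no sign of pairing (correlation of same-numbered deviations 0.024 and 0.032). The block ended the call of Gpx2 (adjusted p = 0.0522) among the genes named for the largest changes or for opposed probe sets. With 2 arrays a genotype, probe sets near 0 such as Sod1 on MG-U74B limit what can be said.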
